A study of Rattus norvegicus with 63 samples.

Results

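Bmal1 (also named Arntl), Clock, Npas2 and Rora encode the transcription factors that drive the positive limb of the circadian clock, and their transcripts were followed in the striatum and prefrontal cortex (PFC) of rats that had self-administered a psychostimulant. They were taken as every probe set that carries 1 of these 4 symbols alone in the platform annotation, and each gene was represented by its probe set of highest mean log2 signal. That gave 8 probe sets for 4 genes, of 31099 probe sets and 14218 singly named genes on the rat array. All 4 genes passed the signal filter in both regions.

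The stimulants were amphetamine (Amph), methamphetamine (Meth) and methylphenidate (Mph), given to male Wistar rats that arrived at 4 weeks of age and were injected from 6 weeks. In the pretreated cohort, stimulant rats received 5 mg/kg of their own stimulant 2 times a day for 7 days, then place preference conditioning with 5 mg/kg of it, then intravenous self-administration of it. In the naive cohort the first injections were saline, and conditioning used Amph or Meth at 1.25 or 5 mg/kg, or Mph at 5 mg/kg. Controls of both cohorts received saline in all 3 phases. An infusion carried 0.1 mg/kg of Amph or Meth, but 0.25 mg of Mph in 0.1 ml, so the infused amount of Mph was not matched to the others. The brains came from the rats with the most robust self-administration, 1 day after the final test, and the striatal piece joined rostral caudate putamen and nucleus accumbens. Lights came on at 6 AM for 12 h, and the clock hour of tissue collection is not given in the labels used here. The labels speak of independent RNA pools and also of about as many rats as arrays, so the p-values measure the spread between these samples, which may be technical in part.

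The 63 arrays form 20 groups. Each pretreated group has 3 arrays per region, each naive stimulant group has 3 (2 for Meth 1.25 mg/kg in the PFC), and each naive saline group has 5. Signals were scaled by the authors to a common target, with a median signal per array of 120.4 to 156. Naive arrays fall into 2 batches by the BioB hybridisation control. Batch B (16 arrays) holds Amph 5, Mph 5 and 2 saline arrays per region, and batch A (23 arrays) holds the rest. The projection neuron markers less the cortical markers separated the regions, at 4.69 to 7.35 on 31 striatal arrays and -1.26 to 0.933 on the PFC arrays, in mean log2 signal. The remaining striatal array, naive Meth 1.25 replicate 1, was at 0.0687, within the PFC range. The description of naive saline striatal array 1 names PFC where its title and tissue name striatum. Its markers were in the striatal range.

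The mammalian clock is a transcription loop. BMAL1 pairs with CLOCK, or with the related NPAS2 that is prominent in forebrain, and the pair activates the Per, Cry, Nr1d and Dbp genes through E-box elements. PER and CRY proteins then repress the pair. In a side loop, ROR proteins such as RORA activate Bmal1, and the REV-ERB proteins from Nr1d1 and Nr1d2 repress it, through shared ROR elements in the Bmal1 promoter.

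The Bmal1 promoter is shown because it holds the elements of that side loop. RefSeq (build GRCr8) gives the window of 250 bases before to 50 after the start, which lies at chr1:176766078-176766377 on the plus strand. Capitals mark the ROR element core TAGGTCA and the near form TAGGTTA:

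Bmal1: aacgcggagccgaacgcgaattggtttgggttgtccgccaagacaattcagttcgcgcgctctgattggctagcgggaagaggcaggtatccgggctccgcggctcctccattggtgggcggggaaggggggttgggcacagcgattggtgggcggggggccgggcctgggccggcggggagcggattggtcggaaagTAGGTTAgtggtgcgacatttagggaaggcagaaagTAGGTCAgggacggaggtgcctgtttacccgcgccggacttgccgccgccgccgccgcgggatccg

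TAGGTCA begins 16 bases before the start, and TAGGTTA, which was searched after the sequence had been read, begins 52 bases before it. Of 33469 such windows in the table, 2.629% hold TAGGTCA and 1.61% hold TAGGTTA, counting both strands. The E-box CACGTG (6.418% of windows), its variant CACGTT (4.834%), the cores TGGGTCA (4.093%) and AAGGTCA (4.61%) and the D-boxes TTACGTA (0.5049%) and TTATGTA (2.818%) were searched in the same way. None of these letters is in the windows of the 4 genes, and TAGGTCA is in none of those of Clock, Npas2 and Rora.

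Bmal1 was lower after stimulants in the pretreated striatum. Its log2 signal was 7.45, 7.41 and 7.62 on the Amph arrays, 7.53, 7.14 and 7.15 on the Meth arrays and 7.19, 7.25 and 7.45 on the Mph arrays, against 8.20, 8.24 and 8.22 on the saline arrays. All 9 stimulant arrays lie below all 3 saline arrays, which differ among themselves by far less than the stimulant arrays do. The mean over the 3 stimulants fell by 0.87 ± 0.14 on the log2 scale (SE; 95% confidence interval -1.16 to -0.58), a level 1.83-fold lower than in saline. This passed limma's test over all 8531 genes (adjusted p = 0.00481), where 0.363% of genes passed in either direction and 0.152% passed as lower. Groups without overlap, stimulant below saline, occurred in 3.34% of genes in this comparison. Bmal1 had rank 2 of 8531 by p. The difference was -0.85 to -0.91 when each array was left out in turn, and its adjusted p was 0.0602 without saline array 1 and 0.0695 without saline array 3.

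Each stimulant of the pretreated striatum showed the same side. Meth was lower than saline by a log2 difference of -0.95 ± 0.17 (limma, adjusted p = 0.0243, with 0.703% of genes passing) and Mph by -0.93 ± 0.17 (adjusted p = 0.0480, with 0.0821% passing). Amph, at -0.73 ± 0.17, missed the threshold (unadjusted p = 0.000258, adjusted p = 0.202), in a comparison where limma passed 0 genes of 8531 and 744 had an unadjusted p under 0.05. The 3 comparisons share the saline arrays. The Meth call and the Mph call were each lost in 5 of 6 runs that left out 1 array, with adjusted p up to 0.237 for Meth and 0.278 for Mph.

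Marker levels of other cell types were read on the same striatal arrays. The 7 measured projection neuron markers averaged 12.25 to 12.54 in log2 signal on stimulant arrays and 12.60 to 12.77 on saline arrays, with no overlap. The 5 measured cortical neuron markers, 2 of which passed the signal filter, averaged 5.88 to 7.56 on stimulant arrays and 5.46 to 6.06 on saline arrays. The means of these values were 6.79 with stimulant and 5.75 with saline. Of the 2 tested, Bhlhe22 was at 1.33 ± 0.46 (limma, unadjusted p = 0.00731, adjusted p = 0.155). Slc17a7 was at 1.18 ± 0.54 (limma, unadjusted p = 0.0389, adjusted p = 0.282). The 6 astrocyte markers averaged 12.33 to 12.65 on stimulant arrays and 12.20 to 12.36 on saline arrays, and the 6 oligodendrocyte markers 12.55 to 13.06 on stimulant arrays and 12.70 to 13.09 on saline arrays. The Gapdh 3' to 5' ratio, a measure of RNA integrity, was 0.877 to 1.24 on stimulant arrays and 0.744 to 1.04 on saline arrays (log2). The 3 choroid plexus markers averaged 5.68 to 8.97 on stimulant arrays and 6.19 to 6.96 on saline arrays, and Ttr, the 1 of them tested, had a difference of 1.61 ± 0.59 (limma, unadjusted p = 0.0109, adjusted p = 0.186). None of these markers passed the test on its own, and their part in the Bmal1 difference was not tested. In tissue pieces such as these, fewer cells of a type and less RNA per cell cannot be told apart.

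In the pretreated PFC, Bmal1 lay on the same side by a smaller amount. It was 7.49, 7.59 and 7.63 with Amph, 7.75, 7.72 and 7.37 with Meth and 7.49, 7.61 and 7.64 with Mph, against 7.89, 8.10 and 7.86 with saline. Again no stimulant array reaches the lowest saline array, a separation that 0.715% of genes showed in this direction. The mean difference was -0.36 ± 0.13 (95% confidence interval -0.63 to -0.09). Its unadjusted p was 0.0109 and its adjusted p 0.650 by limma, so it did not pass, in a comparison where 0.0703% of genes did. The 3 single differences were -0.33 to -0.38. On these PFC arrays the projection neuron markers averaged 8.14 to 8.97 with stimulant and 8.67 to 9.56 with saline, and the oligodendrocyte markers 12.13 to 12.85 with stimulant and 12.50 to 12.65 with saline. All 6 tested projection neuron markers were below 0 (median -0.55), among them Pde10a at -0.47 ± 0.11 (unadjusted p = 0.000182, adjusted p = 0.120), Rgs9 at -0.83 ± 0.24 and Drd1 at -0.63 ± 0.20. The myelin gene Mag was at -0.55 ± 0.14 (adjusted p = 0.161), the lowest of the oligodendrocyte markers. Opalin was at -0.32, Cnp at -0.26, Mog at -0.24, Mobp at -0.026 and Mbp at 0.0044. Of the tested cortical neuron markers, Slc17a7 was at 0.37 ± 0.14 (adjusted p = 0.673), Bhlhe22 at 0.060, Neurod1 at 0.013 and Neurod6 at -0.12. None of these markers passed limma's test, and their part in the PFC differences was not tested.

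In the naive cohort the Bmal1 groups overlapped. Naive striatal stimulant arrays ranged from 7.43 to 8.27 with a median of 7.80 (n = 15), and saline arrays from 7.70 to 8.28 with a median of 7.88 (n = 5). The mean difference was -0.16 ± 0.11 (limma, adjusted p = 0.627, with 0.0938% of genes passing). Within batch A it was -0.20 ± 0.16 and within batch B -0.094 ± 0.17. Naive PFC stimulant arrays ranged from 6.99 to 7.87 with a median of 7.67 (n = 14), and saline arrays from 7.63 to 7.88 with a median of 7.83 (n = 5). That difference was -0.17 ± 0.10 (adjusted p = 0.652, with 0.0586% passing), with -0.059 ± 0.12 in batch A and -0.33 ± 0.20 in batch B. The lowest Bmal1 value of the series, 6.99, belongs to PFC naive Amph 5 replicate 1. In naive PFC the myelin gene Mag passed, at -0.53 ± 0.11 (limma, adjusted p = 0.0483). The other oligodendrocyte markers were at -0.39 (Opalin), -0.25 (Cnp), -0.21 (Mog), 0.080 (Mobp) and 0.18 (Mbp). The blood marker Hbb, the 1 tested of its list, was at 1.78 ± 0.41 in naive PFC (limma, adjusted p = 0.102). In naive striatum it was at 1.54 ± 0.40 (adjusted p = 0.136). There the oligodendrocyte markers ran from -0.39 (Mag) to -0.039 (Mbp). The astrocyte markers ran from -0.47 (Gfap, adjusted p = 0.140) to -0.0086 (Slc4a4). Of the markers named here only Mag in PFC passed. The part of these markers in the naive Bmal1 differences was not tested.

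The gap between cohorts and between regions was tested directly. The effect of the 3 stimulants at 5 mg/kg on striatal Bmal1 was lower in the pretreated than in the naive cohort by -0.64 ± 0.19 (95% confidence interval -1.02 to -0.26). With an unadjusted p of 0.00186 and an adjusted p of 0.112 it did not pass, where 0.0586% of genes did. The same contrast in the PFC was -0.13 ± 0.17, where 0.0117% of genes passed. Within the pretreated cohort the striatal effect less the PFC effect was -0.51 ± 0.19 (unadjusted p = 0.0101, adjusted p = 0.938), in a limma contrast that passed 0 of 8531 genes and gave 439 an unadjusted p under 0.05. Controls of both cohorts received saline throughout, yet striatal Bmal1 averaged 8.22 in the pretreated and 7.96 in the naive saline group. That gap is part of the striatal cohort contrast. The stimulant groups at 5 mg/kg averaged 7.27 to 7.49 in pretreated and 7.63 to 7.81 in naive striatum. The cohort coincides with its own set of arrays, so cohort and array series cannot be told apart.

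Ordered by level, striatal Bmal1 ran from pretreated Meth (mean 7.27 ± 0.22, SD), Mph (7.29 ± 0.14) and Amph (7.49 ± 0.11) through the naive stimulant groups (7.63 to 7.95) to naive saline (7.96 ± 0.22) and pretreated saline (8.22 ± 0.02). Of the 9 neighbouring pairs in that order, 2 were separated by more than the larger SD, namely pretreated Mph from pretreated Amph and naive saline from pretreated saline. In the PFC none of the 9 neighbouring pairs was. Pretreated saline was the highest group in both regions. Of the 16 stimulant groups over both regions and cohorts, 15 had a lower mean than their saline group, and PFC naive Meth 1.25 was the exception at 0.029 ± 0.17. Of the 16 Bmal1 differences 2 passed, both described above, and 8 had an unadjusted p under 0.05. The counts of 15 and 8 were not set against shares of all genes. Groups of a cohort and region share their saline arrays, so the 16 differences are not independent. The share of all genes passing in naive PFC was 0.492% for Amph 1.25, 0.0117% for Amph 5, 11.1% for Meth 1.25, 0.0352% for Meth 5 and 0% for Mph, and in pretreated PFC it was 0.0234% for Amph, 0.0117% for Meth and 0.0938% for Mph. In naive striatum it was 0.34% for Amph 1.25, 0% for Amph 5, 0.188% for Meth 1.25, 0.328% for Meth 5 and 0.129% for Mph. These shares, and the limits on counts by unadjusted p, apply also to the single groups of Clock, Npas2 and Rora.

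**Figure D1:**
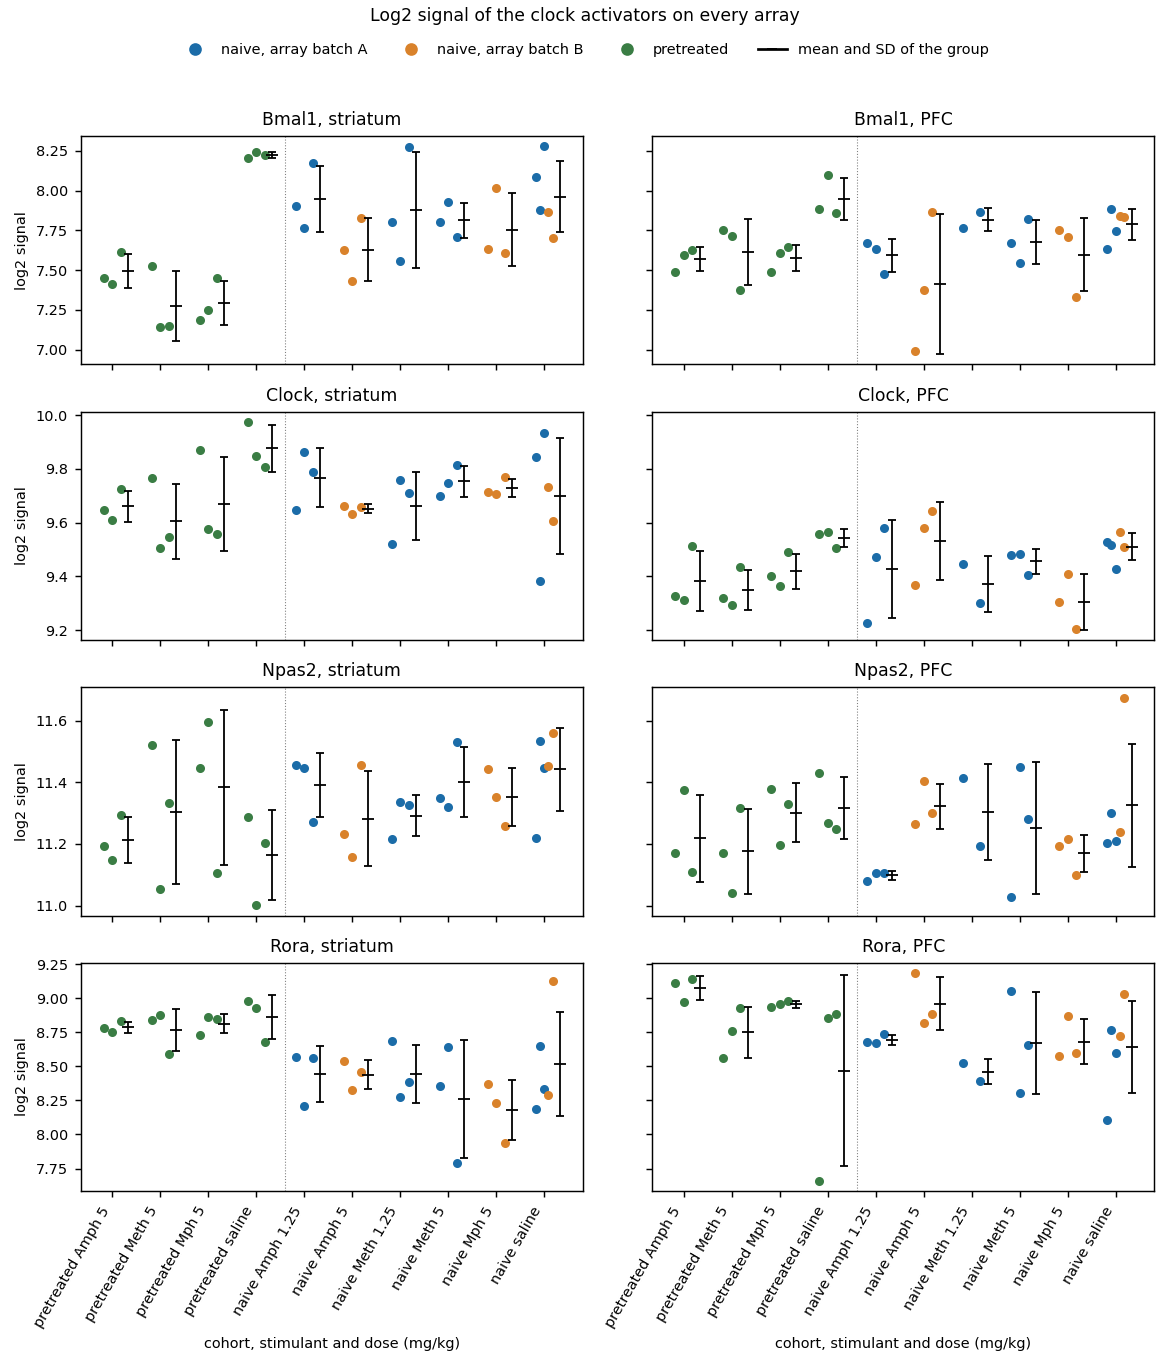
Log2 signal of Bmal1, Clock, Npas2 and Rora (rows) in striatum (left) and PFC (right), 1 point per array, by cohort, stimulant and dose in mg/kg, with colours for the naive array batches and the pretreated cohort. Black marks give the group mean and SD. The 9 pretreated striatal stimulant arrays have Bmal1 at 7.14 to 7.62, below the saline arrays at 8.20 to 8.24.

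Clock, which encodes the usual partner of BMAL1, passed no stimulant comparison. In the pretreated striatum it was 9.65, 9.61 and 9.73 with Amph, 9.76, 9.51 and 9.55 with Meth and 9.87, 9.58 and 9.56 with Mph, against 9.97, 9.85 and 9.81 with saline. The stimulant and saline arrays overlapped, with Mph replicate 1 inside the saline range. Clock had rank 725 of 8531 by p. The mean difference was -0.23 ± 0.093 (95% confidence interval -0.42 to -0.04; limma, unadjusted p = 0.0190, adjusted p = 0.224). In this fit 16.2% of all genes had an unadjusted p under 0.05. A separate Clock probe set, 1389456_at, gave -0.22 ± 0.099.

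In the pretreated PFC, Clock ranged from 9.29 to 9.51 on stimulant arrays with a median of 9.36 (n = 9), against 9.56, 9.57 and 9.50 on saline arrays. Here too the groups overlapped, with 1 stimulant array inside the saline range. Clock had rank 506 of 8531 by p. The difference was -0.16 ± 0.078 (unadjusted p = 0.0535, adjusted p = 0.902). Naive stimulant effects on Clock were 0.013 ± 0.072 in striatum and -0.092 ± 0.061 in PFC. Over all 16 stimulant groups the differences ran from -0.27 (striatum, pretreated Meth) to 0.067 (striatum, naive Amph 1.25), and limma passed 0 of 16, with 2 under an unadjusted p of 0.05.

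Npas2, the forebrain counterpart of Clock, passed no stimulant comparison either. In the pretreated striatum its stimulant arrays ranged from 11.05 to 11.60 with a median of 11.29 (n = 9), and its saline arrays were at 11.29, 11.00 and 11.20. The mean difference was 0.14 ± 0.0998 (limma, adjusted p = 0.519), opposite in sign to those of Bmal1 and Clock there. The 3 other mean differences were -0.083 ± 0.093 in pretreated PFC, -0.099 ± 0.077 in naive striatum and -0.096 ± 0.073 in naive PFC. Single groups differed from saline by -0.23 (PFC, naive Amph 1.25) to 0.22 (striatum, pretreated Mph), and limma passed 0 of 16, with 1 under an unadjusted p of 0.05. The 95% confidence intervals of the 4 mean differences reach from -0.27 to 0.34.

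Rora encodes the nuclear receptor that activates Bmal1. In the pretreated PFC it was 9.12, 8.98 and 9.14 with Amph, 8.56, 8.76 and 8.93 with Meth and 8.93, 8.95 and 8.98 with Mph, against 7.66, 8.86 and 8.89 with saline. Saline array 1 sits far below the rest, and the other saline arrays lie inside the stimulant range. The mean difference was 0.46 ± 0.19 (limma, unadjusted p = 0.01996, adjusted p = 0.727), and without saline array 1 it was 0.054 ± 0.16. In the pretreated striatum stimulant arrays ranged from 8.59 to 8.87 with a median of 8.83 (n = 9), against 8.98, 8.93 and 8.68 with saline, a difference of -0.072 ± 0.16. The naive differences were -0.16 ± 0.12 in striatum and 0.049 ± 0.15 in PFC, and limma passed 0 of 16 single groups, with 2 under an unadjusted p of 0.05.

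**Figure D2:**
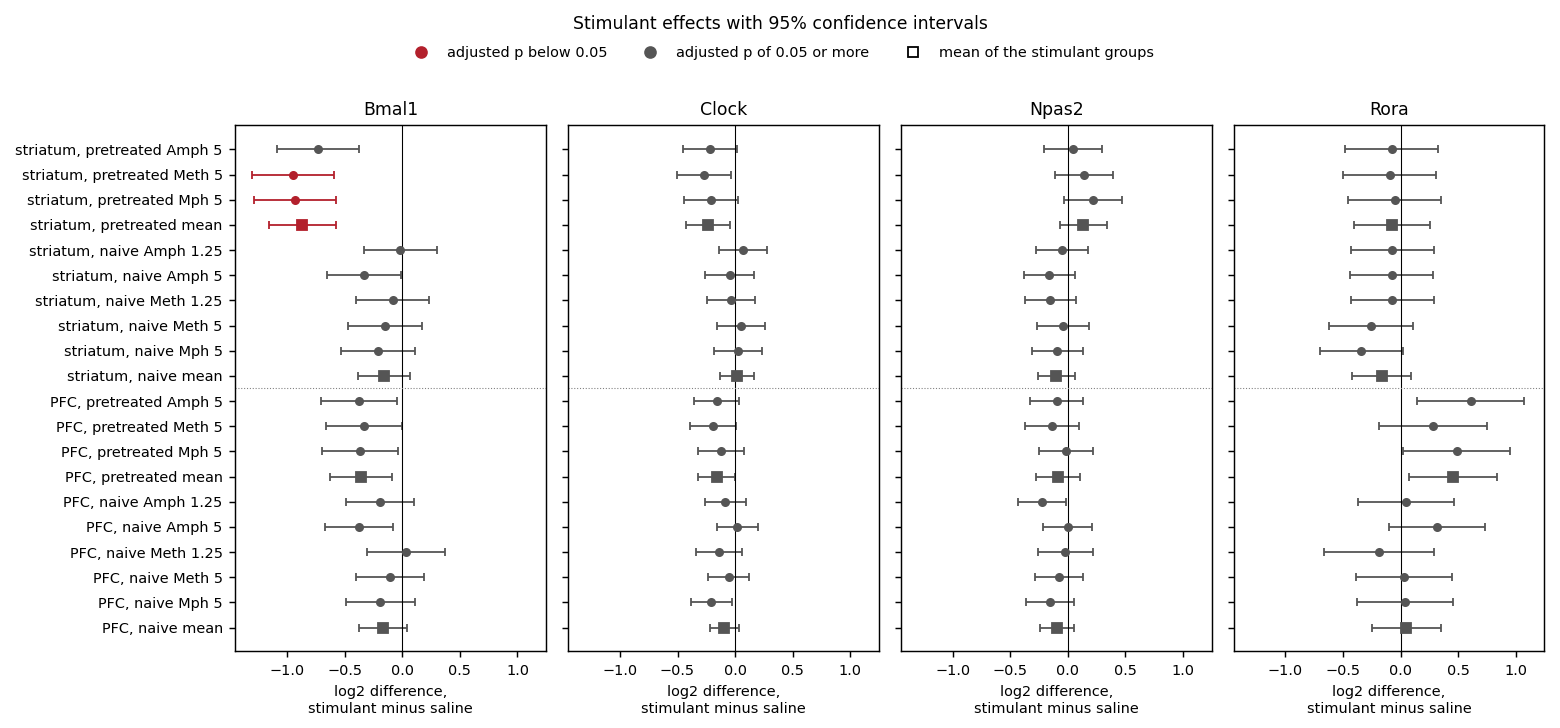
Log2 differences of each stimulant group from the saline group of its cohort (points) and of their mean (squares), with 95% confidence intervals, for the 4 genes. Red marks an adjusted p below 0.05. Only Bmal1 in the pretreated striatum is red, for the mean (-0.87), Meth (-0.95) and Mph (-0.93), with the interval of Amph (-0.73) also below 0.

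Dose and agent were compared at matched conditions within the naive and pretreated cohorts. For Bmal1, 5 minus 1.25 mg/kg was -0.32 ± 0.17 for Amph and -0.066 ± 0.17 for Meth in naive striatum, and in naive PFC it was -0.18 ± 0.16 for Amph and -0.14 ± 0.18 for Meth. The Amph doses lie in different array batches, and with the batch as a block the Amph contrast was -0.022 ± 0.25 in striatum and -0.26 ± 0.24 in PFC. Meth minus Amph on Bmal1 was -0.22 in pretreated striatum (95% confidence interval -0.58 to 0.14) and 0.044 in pretreated PFC (-0.29 to 0.37). In naive striatum it was -0.068 (-0.43 to 0.29) at 1.25 mg/kg and 0.18 (-0.17 to 0.54) at 5 mg/kg, and in naive PFC 0.22 (-0.15 to 0.59) at 1.25 mg/kg and 0.27 (-0.065 to 0.60) at 5 mg/kg. The naive groups at 5 mg/kg also lie in different batches, and with the batch as a block their contrast was -0.11 ± 0.25 in striatum and 0.35 ± 0.24 in PFC. Meth carries a methyl group on the amine that Amph lacks. Each of these 6 intervals includes 0. No dose contrast (4 per gene) and no Meth minus Amph contrast (6 per gene) passed for any of the 4 genes, with p-values adjusted over all genes. Of all genes, 7.07% in PFC and 1.68% in striatum passed the Amph dose contrast and 0% the Meth dose contrast in either region. For Meth minus Amph, the passing share in naive PFC was 6.26% at 1.25 and 1.45% at 5 mg/kg, in naive striatum 0% and 1.58%, and in both pretreated regions 0%. The smallest adjusted p for Clock, Npas2 and Rora was 0.215, for Npas2 and dose.

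Between the regions, Clock was higher in striatum than in PFC among saline rats. In the pretreated cohort it was 9.97, 9.85 and 9.81 in striatum, against 9.56, 9.57 and 9.50 in PFC, with no overlap, as 23.5% of genes showed in this direction. The difference was 0.33 ± 0.10 (limma, adjusted p = 0.00981). In the naive cohort it was 9.84, 9.38, 9.93, 9.73 and 9.61 in striatum, against 9.53, 9.52, 9.43, 9.57 and 9.51 in PFC, with striatal array 2 below every PFC array. That difference was 0.19 ± 0.078 (adjusted p = 0.0486). Regional differences were common, with 27% of genes passing in the pretreated and 40.4% in the naive cohort. Probe set 1389456_at gave 0.50 ± 0.12 (adjusted p = 0.000993) in the pretreated and 0.18 ± 0.0905 (adjusted p = 0.105) in the naive cohort. The naive call was lost in 7 of 10 runs that left out 1 array (adjusted p up to 0.202), and the pretreated call in 1 of 6, without striatal saline array 1 (0.0636).

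The other genes passed neither regional contrast with their main probe sets. Bmal1 was 0.28 ± 0.17 higher in striatum than in PFC in the pretreated cohort and 0.18 ± 0.13 in the naive cohort. Npas2 was -0.15 ± 0.12 in the pretreated and 0.12 ± 0.0915 in the naive cohort. Rora was 0.39 ± 0.22 in the pretreated cohort, or -0.011 ± 0.21 without PFC saline array 1, and -0.13 ± 0.17 in the naive cohort. A dim second Rora probe set, 1380478_at, disagreed in the naive cohort. It read 4.52, 5.77, 5.73, 5.86 and 5.81 in striatum, against 5.39, 2.50, 2.35, 6.08 and 1.20 in PFC, a difference of 2.03 ± 0.59 (adjusted p = 0.00495). That probe set and the Clock probe sets 1369168_a_at and 1380098_at lie below the signal filter in both regions.

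**Figure D3:**
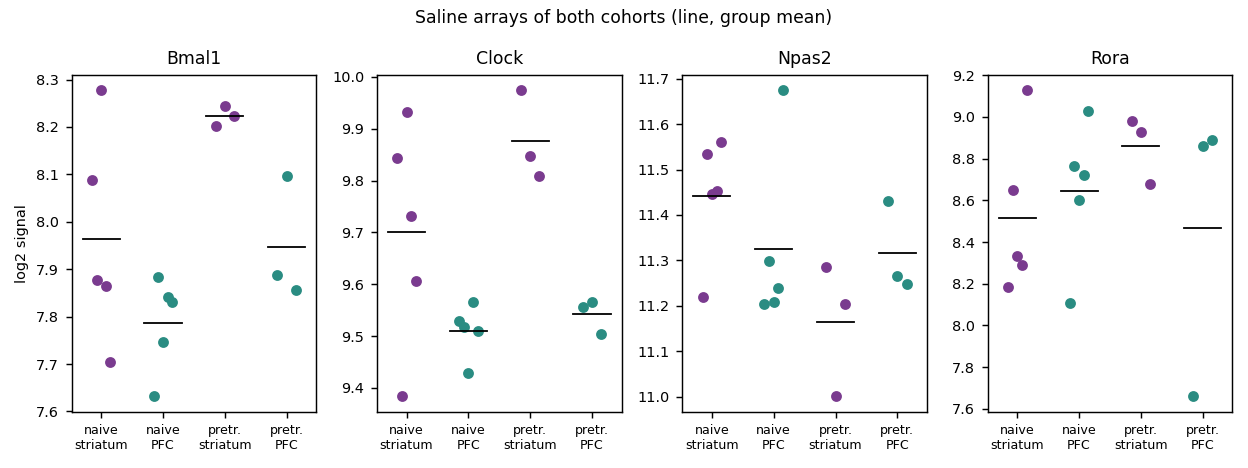
Log2 signal of the 4 genes on the saline arrays of the naive and pretreated (pretr.) cohorts, striatum left of PFC within each cohort, 1 point per array, with a line at the group mean. Clock shows no overlap of regions in the pretreated cohort, at 9.81 to 9.97 in striatum and 9.50 to 9.57 in PFC.

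The 4 genes were correlated across arrays with each other and with the repressor and output genes Per2, Nr1d1, Nr1d2 and Dbp. This gave 44 correlations, 22 per region, after the mean of each array series (batch A, batch B, pretreated) was subtracted. Of these, 5 passed a permutation test within series (100000 draws, two-sided, adjusted over the 44). The draws shuffle saline and stimulant arrays together within a series. The p-values therefore cannot tell a shared difference between stimulant and saline groups from variation between arrays within a group. In the striatum (32 arrays) Bmal1 ran against Per2, which encodes a main repressor of the BMAL1 pair. Pearson r was -0.63 and Spearman rho -0.60 (permutation p = 0.0003 and 0.00098, adjusted 0.0044 and 0.0144), and r was -0.54 without the 2 arrays most extreme in Bmal1. Within series r was -0.43 in batch A, -0.15 in batch B and -0.82 in the pretreated cohort.

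In the PFC (31 arrays) Bmal1 ran against Per2 (r = -0.55, rho = -0.58, permutation p = 0.00046 and 0.00055, adjusted 0.00506 and 0.0121), Nr1d2 (r = -0.67, rho = -0.63, p = 6e-05 and 0.00024, adjusted 0.00264 and 0.0106) and the output gene Dbp (r = -0.69, rho = -0.59, p = 0.00025 and 0.00264, adjusted 0.0044 and 0.0232). Without the 2 arrays most extreme in Bmal1 these r were -0.47, -0.62 and -0.58. Batch A did not share the relation for any of them, at -0.10 for Per2, -0.10 for Nr1d2 and 0.30 for Dbp, while batch B gave -0.71 to -0.81 and the pretreated cohort -0.80 to -0.86. Rora ran with Per2 in the PFC (r = 0.56, rho = 0.54, p = 0.001 and 0.00229, adjusted 0.0088 and 0.0232; 0.41 without the 2 arrays most extreme in Rora), at 0.68 in batch A, 0.24 in batch B and 0.57 in the pretreated cohort. Striatal Bmal1 and Clock had r = 0.51 (permutation p = 0.00684, adjusted 0.0502), which did not pass.

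The relations were also read without the saline arrays, a comparison added after the data were seen. Among stimulant arrays alone, r between Bmal1 and Per2 was -0.28 in striatum (24 arrays) and -0.31 in PFC (23 arrays), and neither passed. In PFC it was -0.50 between Bmal1 and Nr1d2 (permutation p = 0.0147, adjusted 0.285) and -0.45 between Bmal1 and Dbp (p = 0.125, adjusted 0.430), the last at -0.031 without the 2 arrays most extreme in Bmal1. After group means were subtracted in place of series means, r between Bmal1 and Per2 was -0.11 in striatum and -0.25 in PFC. In PFC it was then -0.43 for Nr1d2 (permutation p = 0.0469) and -0.49 for Dbp (p = 0.0472), both with an adjusted p of 0.519, and 0 of the 44 correlations passed. Rora and Per2 in the PFC passed among stimulant arrays by Pearson's r (r = 0.67, permutation p = 0.00046, adjusted 0.0202) and not by Spearman's rho (0.58, p = 0.00576, adjusted 0.253).

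**Figure D4:**
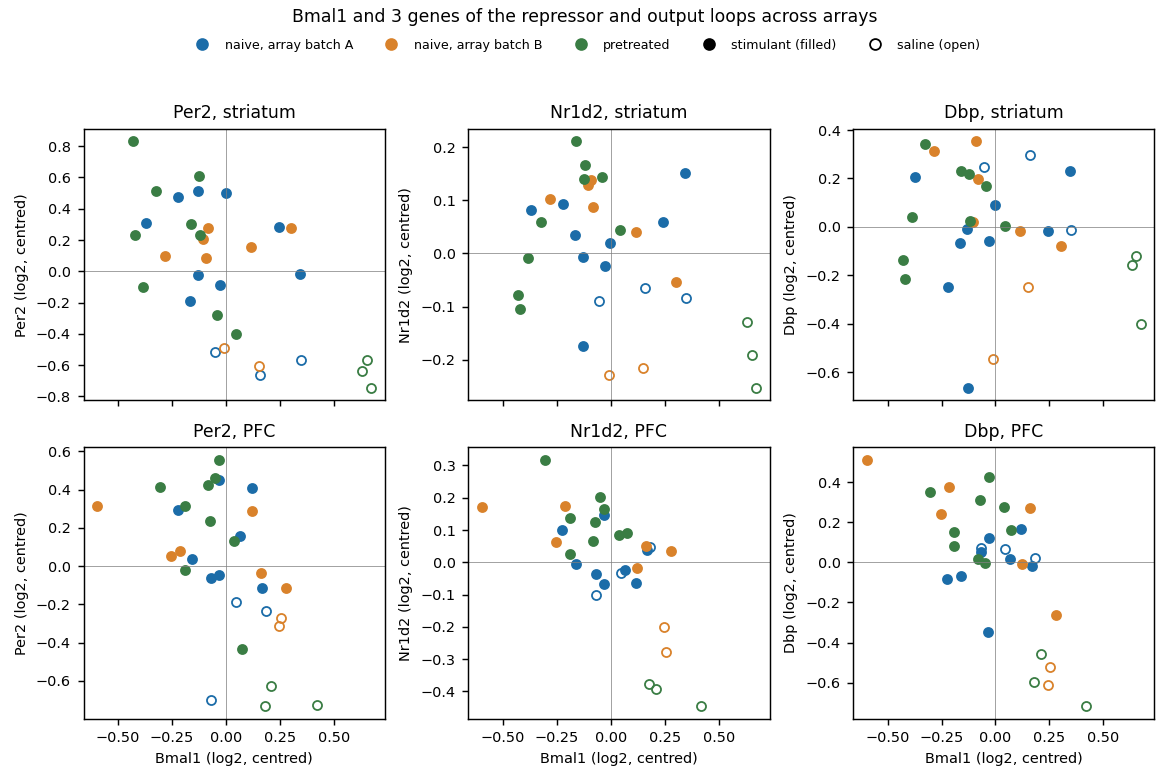
Bmal1 (horizontal) against Per2, Nr1d2 and Dbp (vertical) on every array of striatum (top) and PFC (bottom), log2 signal with the mean of each array series subtracted. Filled points are stimulant arrays and open points saline arrays, and r was -0.63 for Per2 in striatum and -0.55 in PFC. In striatum the 3 open green points, pretreated saline, lie apart at the high end of Bmal1.

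Beside the 4 activators, the repressor and output list had 12 genes tested in striatum and 11 in PFC. In the pretreated striatum 1 of 12 rose, Per2, by 0.87 ± 0.18 (limma, adjusted p = 0.0264), where 0.363% of all genes passed, with a list median of 0.20 against -0.012 over all genes. In the pretreated PFC 4 of 11 rose, namely Per2 (0.93 ± 0.14), Nr1d2 (0.54 ± 0.066), Dbp (0.79 ± 0.15) and the repressor gene Bhlhe41 (0.48 ± 0.092), where 0.0703% of all genes passed, with a list median of 0.41 against -0.0094. None of the list fell in either. In naive striatum 1 of 12 rose, again Per2, by 0.76 ± 0.14 (adjusted p = 0.0192), where 0.0938% of all genes passed. In naive PFC 0 of 11 passed by limma, against 0.0586% of all genes, and 6 were under an unadjusted p of 0.05, 4 of them higher and 2 lower, against 8.73% of all genes. Nr1d2, which encodes the repressor of Bmal1 REV-ERB beta, was 0.26 ± 0.070 higher in the pretreated striatum and missed the threshold (adjusted p = 0.0841), and Nr1d1 was at -0.085 ± 0.15.

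Of 4 tested genes of the ROR and REV-ERB families and their targets, 1 rose in the pretreated PFC, Nr1d2, and limma passed 0 of 4 in the 3 other mean comparisons, where 2 (pretreated striatum), 1 (naive striatum) and 3 (naive PFC) had an unadjusted p under 0.05. Nr1d1, Nr1d2 and Cry1 are also counted in the repressor and output list. Of all genes, 16.2% were under that p in pretreated striatum, and the share for naive PFC is given above. It is not given for naive striatum or pretreated PFC. Rorb, the brain-enriched sister of Rora, was at 0.53 ± 0.19 in the pretreated striatum (adjusted p = 0.164). Of the related helix-loop-helix PAS genes, 4 of 8 passed the signal filter, and limma passed 0 of 4 in each of the 4 mean comparisons, with 1 under an unadjusted p of 0.05 in each pretreated region and 0 in each naive one. Arnt2, which encodes a general partner of this protein family, was 0.29 ± 0.11 in the pretreated striatum (unadjusted p = 0.0119, adjusted p = 0.192). Of the kinases, ligases and cofactors that tune the loop, 11 were tested and limma passed 0 of them in each mean comparison. In the pretreated striatum 2 of the 11, Gsk3b and Hdac3, had an unadjusted p under 0.05, a share near the 16.2% of all genes in that fit.

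The genes most like each activator were taken as the 3 of highest Pearson r over the arrays of a region, with series means subtracted, among 8530 genes, as a description. For Bmal1 in striatum (32 arrays) these were Zc3h14 (r = 0.75), Gphn (0.73) and Cnr1 (0.72). The 99th percentile of all genes, given for scale, was 0.56, and the 3 highest exceed it by construction. In PFC (31 arrays) they were Glrx (0.71), Tor2a (0.62) and Sphk2 (0.61), with that percentile at 0.44. Striatal Clock was nearest to Shb (0.68), striatal Npas2 to Kcnma1 (0.64) and striatal Rora to Arid5b (0.74). In PFC the nearest were Bend4 for Clock (0.70), Pum2 for Npas2 (0.74) and Myo5a for Rora (0.86), and the clock output gene Hlf was next for Rora (0.83). No gene named here appears for both regions of the same activator.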

How the data were processed

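The authors deposited 1 microarray intensity per probe set and array, made with MAS5 per the submitters' processing notes. The MAS5 version is not given in the sources used here. A trimmed mean of 500.1 to 500.2 on every array shows a common scaling, which hides differences in total RNA. Values under 1 were set to 1 and log2 was taken. Probe sets were named from the platform annotation, with 1 per gene (highest mean), and the 40% of genes of lowest mean per region were left out. Bmal1 lies just above that limit, at percentile 41.2 in PFC and 41.9 in striatum. limma 3.58.1 (R 4.3.3) fitted 1 mean per group per region, or over both regions, with eBayes and an intensity trend. The Benjamini-Hochberg method took in 8531 genes, with 0.05 as the threshold. On simulated data for the pretreated striatal mean over 8531 genes, 52% of genes changed by 0.5 and 92.9% of those changed by 0.9 (log2) were recovered. The simulation held 100 and 98 such genes at once, with independent normal noise. In the real comparison 31 genes passed, so these shares may overstate recovery there. The labels give no shared animal. Correlations of arrays with the same number were -0.477 to 0.462 within PFC and -0.467 to 0.442 within striatum. Their medians were 0.034 and -0.020, against -0.021 and 0.0097 for other numbers. Replicate numbers were not taken as pairs within a region. Arrays of the same group and number in both regions had a median correlation of 0.205 (-0.584 to 0.547), against -0.105 for other numbers. The main regional contrasts took them as independent, and a fit with that block is given below. The 4 genes, the lists and the tests were chosen with earlier results of these data known, and the text names the 4 genes, their probe sets, list members that passed or stand beside one of the 4, and the 3 most similar genes.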

Additional observations from a re-analysis of the deposited data

Results flagged for a closer look

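Npas2 in the PFC of naive saline rats held 1 array apart from the others. Its log2 signal was 11.68 there, against 11.20 to 11.30 on the other saline arrays, a gap of 0.798 of the whole range (limit 0.71 for 5 arrays). Of the 8 combinations of gene and naive saline group examined this was the only one beyond the limit. Chance flags about 1 combination in 20, so 1 flag among 8 would not be unusual. The naive PFC effect on Npas2 was -0.096 ± 0.073 with this array and -0.0086 ± 0.068 without it.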

How the results depend on the processing

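The striatal Bmal1 difference in pretreated rats was -0.79 to -0.88 and passed under every setting other than leaving out 1 array that gave a value, with adjusted p of 0.00275 to 0.0134. A filter of 60% leaves Bmal1 and Rora out, so it gave no value for them. Replicate numbers were not taken as pairs within a region. With the replicate block the Bmal1 difference was -0.87 (adjusted p = 0.00871). Across regions, where arrays of the same group and number had a median correlation of 0.205 and a consensus correlation of 0.149, the block gave regional Clock differences of 0.19 (0.0310) and 0.33 (0.00472). Over all 144 contrasts of the 4 genes, settings other than leaving out 1 array gave 1440 values, of which 1327 kept direction and call, 7 lost the call and 106 turned sign, 2 of them regional contrasts with a call. Leaving out 1 array gave 1468 values, of which 20 lost the call and 116 turned sign, none with a call. The cause was not tested for any of these, and precision is limited by the number of arrays.

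Calls lost were Mph on striatal Bmal1, at -0.93, without a filter (adjusted p = 0.0547) and with all probe sets (0.0692). The naive regional Clock difference was 0.19 without a filter (0.0611) and with all probe sets (0.0549), 0.18 with 1389456_at (0.105) and 1.20 with 1380098_at (0.183). The pretreated one was 0.076 with 1369168_a_at (0.964). Correlations with group means subtracted were -0.25 (Bmal1 and Per2), -0.43 (Nr1d2), -0.49 (Dbp) and 0.37 (Rora and Per2) in PFC and -0.11 (Bmal1 and Per2) in striatum. With no mean subtracted, Bmal1 and Per2 had -0.45 in PFC and -0.24 in striatum, and Rora and Per2 had 0.30. On stimulant arrays alone, a setting added after the data were seen, Bmal1 had -0.31 (Per2), -0.50 (Nr1d2) and -0.45 (Dbp) in PFC and -0.28 (Per2) in striatum. Of 44 correlations 5 passed as reported, against 0 with group means subtracted, 2 with none and 1 on stimulant arrays.

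The sign changes that follow are the 39 among the 98 results whose values or ranges the text gives. Signs turned with quantile normalization for Bmal1 with PFC naive Meth 1.25 (-0.0021), the PFC cohort difference of Npas2 (0.018) and striatal Meth minus Amph at 1.25 for Rora (-0.018). With the batch as a block they turned for PFC Amph dose on Rora (-0.12), the PFC cohort difference of Npas2 (0.052) and striatal naive Meth minus Amph at 5 on Bmal1 (-0.11). With the replicate block the naive striatal Clock effect was -0.0070. Without the striatal array of cortical profile, striatal Meth minus Amph at 1.25 on Rora was -0.12 and the naive region difference of Npas2 was 0.0049. Within batch B the naive PFC Rora effect was -0.053. Clock probe set 1369168_a_at gave a mean effect of 0.058 in pretreated PFC and 0.24 in pretreated striatum (0.24 for Meth), -1.21 for striatal naive Amph 1.25, Amph dose contrasts of -0.35 in PFC and 2.03 in striatum, Meth minus Amph of 2.03 and -0.31 in naive striatum, a PFC cohort difference of 0.64, a naive region contrast of -0.52 and a pretreated region difference of 0.18. Clock probe set 1380098_at gave mean effects of 0.57 (naive) and 0.62 (pretreated) in PFC and -0.39 in naive striatum, a PFC Amph dose contrast of -0.52, a PFC cohort difference of 0.36 and a naive region difference of -0.96. Clock probe set 1389456_at gave -0.11 for PFC Amph dose and 0.026 and -0.066 for striatal naive Meth minus Amph. Rora probe set 1380478_at gave mean effects of -0.030 in pretreated PFC (-1.60 for Amph) and 0.37 in pretreated striatum, Meth minus Amph of 2.17 in pretreated PFC and -0.79 in naive striatum, a PFC cohort difference of -1.35, a striatal Meth dose contrast of 0.51, a naive region contrast of 2.03 and a pretreated region difference of 0.40.

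Leaving out 1 array, Bmal1 in pretreated striatum ran from -0.91 to -0.85 (mean), -1.08 to -0.88 (Meth) and -1.01 to -0.88 (Mph), and the Clock region contrast from 0.13 to 0.27 (naive) and 0.29 to 0.37 (pretreated). Ranges that cross 0 for Bmal1 were -0.41 to 0.029 (PFC Amph dose), -0.23 to 0.13 (striatal Meth dose), -0.025 to 0.16 (pretreated PFC Meth minus Amph), -0.27 to 0.091 (striatal Meth minus Amph at 1.25), -0.055 to 0.088 (naive region difference), -0.021 to 0.080 (PFC naive Meth 1.25), -0.13 to 0.075 (striatal naive Amph 1.25) and -0.28 to 0.075 (striatal naive Meth 1.25). For Clock they were -0.066 to 0.071 (naive striatal mean) and -0.012 to 0.13 (striatal naive Amph 1.25), and for Npas2 -0.094 to 0.051 (PFC cohort difference) and -0.090 to 0.028 (naive region difference). For Rora they were -0.073 to 0.54 and -0.00085 to 0.24 (cohort difference, PFC and striatum), -0.38 to 0.052 (striatal Meth dose), -0.085 to 0.15 (naive PFC mean), -0.12 to 0.088 (striatal Meth minus Amph at 1.25) and -0.011 to 0.60 (pretreated region contrast).

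Counts of all genes passing the mean comparisons moved more. They were 31 in pretreated striatum, against 163 without the naive array of cortical profile, 102 with 1 cohort alone, 74 with the batch block, 52 with the replicate block, 51 with all probe sets, 49 with a 60% filter, 20 without a trend, and 0 to 163 when 1 array was left out (0 without saline array 1 or 3). They were 8 in naive striatum, against 1 to 206, and in PFC 5 (naive) against 0 to 42 and 6 (pretreated) against 2 to 12. With all probe sets the regional counts were 6836 against 3445 (naive) and 4681 against 2300 (pretreated).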
